A study of Mus musculus with 20 samples.

Results

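Hepatic transcripts of 10 cytosolic sulfotransferase genes were followed in obese diabetic mice given benzbromarone (BBR), a uricosuric drug, with or without knockdown of Pparg. The genes were Sult2a1, Sult2a2, Sult2a3, Sult2a5, Sult2a6, Sult2a7, Sult2a8, Sult3a1, Sult1a1 and Sult1e1, picked by their symbols out of 22298 genes listed in the count files. All 10 were present in the 20 libraries, and all 10 passed the filter on low counts that left 12342 genes for testing. The family came to attention because Sult2a7 was among the largest decreases under BBR in control-vector livers. The values of that contrast chose the genes and are therefore given as a description without a test. The same holds for both comparisons built on its Vec+BBR livers, namely shRNA+BBR against Vec+BBR and the difference between the BBR effects with and without knockdown.

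Cytosolic sulfotransferases move a sulfate group from the donor 3'-phosphoadenosine-5'-phosphosulfate (PAPS) onto hydroxyl or amino groups, which makes steroids, bile acids, phenols and many drugs more water soluble. Enzymes of the Sult2a group act on hydroxysteroids such as dehydroepiandrosterone and on bile acids, Sult1a1 acts on small phenols, Sult1e1 acts on estrogens, and Sult3a1 acts on amines. In mouse liver several Sult2a genes and Sult3a1 are known for far higher expression in females than in males, and Sult1e1 is known to be abundant in livers of diabetic obese mice.

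All livers were from male Lepr db/db animals, whose leptin receptor is defective and who become obese and diabetic, so every group shared this defect and no lean or untreated animals were included in the values given here. An adeno-associated virus 8 (AAV8) vector was injected into the tail vein at 5 weeks, with a non-targeting shRNA (Vec) or a construct with 4 shRNAs against Pparg (shRNA). BBR was given by gavage at 25 mg/kg once daily for 4 weeks in sodium carboxymethyl cellulose (Vec+BBR and shRNA+BBR), while vehicle groups received the carrier alone, and tissue was taken after 6 h of fasting. Each of the 4 groups had 5 liver libraries. The sources do not state that each library is a separate mouse, so p-values measure the spread between libraries. The promoter that drove the shRNAs is not stated, and a tail vein AAV8 vector reaches mainly hepatocytes.

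Libraries held between 17432904 and 25024099 counts, and 3 counts, taken as the detection floor, corresponded to between 0.120 and 0.172 CPM (counts scaled to a common library total). Levels below are CPM after TMM scaling unless FPKM is named. Pparg, the knockdown target, had 16.4 to 35.9 CPM in Vec against 3.24 to 7.31 CPM in shRNA livers, and 28.0 to 38.3 CPM in Vec+BBR against 7.19 to 21.8 CPM in shRNA+BBR livers. The ranges did not overlap in either pair, with log2 fold changes of −2.12 (SE 0.28, edgeR adjusted p = 4.47e-05) and −1.20 (SE 0.26, edgeR adjusted p = 0.00843). BBR raised Pparg in shRNA livers by 1.28 on the log2 scale (SE 0.28, edgeR adjusted p = 0.00773), so residual Pparg was higher in shRNA+BBR than in shRNA livers. The 6 hepatocyte markers examined summed to between 84502 and 145539 CPM in all 20 libraries, and none was at 0.

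The Sult2a genes examined lie in a cluster on chromosome 7 in GRCm38, from Sult2a5 at chr7:13623967-13670807 on the plus strand to Sult2a7 at chr7:14465051-14494230 on the minus strand. Sult2a2 (chr7:13733505-13779636, plus strand), Sult2a1 (chr7:13796246-13837409), Sult2a3 (chr7:14067446-14123044), Sult2a6 (chr7:14222403-14254870) and Sult2a8 (chr7:14410686-14446769) lie between them, the latter 4 on the minus strand. Sult2a4 (chr7:13909676-13989607, minus strand), which is not among the 10 genes, lies between Sult2a1 and Sult2a3. Sult1a1 (chr7:126672865-126676432), Sult3a1 (chr10:33857721-33879532) and Sult1e1 (chr5:87575969-87591594) lie elsewhere, and all 10 are annotated as protein coding. The close kinship decides how far reads can be told apart, and it is illustrated by the 60 coding bases, in the last exon that codes for protein, that were most alike among Sult2a1, Sult2a2, Sult2a3, Sult2a5 and Sult2a6, with the same stretch of Sult2a7 and Sult2a8. Capitals mark bases that differ from Sult2a1, taken from the GENCODE transcripts.
Sult2a1: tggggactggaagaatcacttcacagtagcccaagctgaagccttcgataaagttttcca
Sult2a2: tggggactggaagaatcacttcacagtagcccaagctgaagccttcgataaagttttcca
Sult2a3: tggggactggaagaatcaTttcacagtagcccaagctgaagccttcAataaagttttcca
Sult2a5: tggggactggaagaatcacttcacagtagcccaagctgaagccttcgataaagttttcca
Sult2a6: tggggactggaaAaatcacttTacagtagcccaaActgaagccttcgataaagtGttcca
Sult2a7: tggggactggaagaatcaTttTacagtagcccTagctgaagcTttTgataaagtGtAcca
Sult2a8: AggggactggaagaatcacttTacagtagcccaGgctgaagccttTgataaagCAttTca
The stretch was at chr7:13796401-13796460 in Sult2a1 (exon 6 of 6), chr7:13779429-13779488 in Sult2a2 (exon 4 of 4) and chr7:14465205-14465264 in Sult2a7 (exon 7 of 7). Sult2a1, Sult2a2 and Sult2a5 were identical over it. Sult2a3 differed from Sult2a1 at 2 bases, Sult2a6 at 4, and Sult2a7 and Sult2a8 at 7 each.

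Over the aligned coding sequence, Sult2a1 was 98.0% identical to Sult2a2 (585 bases aligned, since the annotated Sult2a2 transcript is short), 94.9% to Sult2a5, 93.7% to Sult2a3 and 89.7% to Sult2a6. Identity with Sult2a1 was 81.3% for Sult2a7 and 68.2% for Sult2a8. When annotated transcripts were divided into windows of 50 bases, 62.1% of the windows of Sult2a2, 34.5% of those of Sult2a5 and 33.2% of those of Sult2a1 were also found in another gene. The share was 8.36% for Sult2a3, 6.63% for Sult2a6, 6.59% for Sult1a1 (shared with Gm6939), 6.15% for Sult3a1 (shared with Sult3a2), 1.72% for Sult2a8 and 0% for Sult2a7 and Sult1e1. The deposited counts divide reads that match several genes, which leaves counts that are not whole numbers. Such counts were found in 19 of 20 libraries for Sult2a1, Sult2a2 and Sult2a5, in 18 for Sult2a6, in 10 for Sult2a3 and in 2 for Sult3a1. No library had one for Sult2a7, Sult2a8, Sult1a1 or Sult1e1. Sult2a4, outside the 10 genes, shared windows with Sult2a1, Sult2a2, Sult2a3, Sult2a5 and Sult2a6 and had such counts in 8 libraries. The split of counts between Sult2a1, Sult2a2, Sult2a3, Sult2a5 and Sult2a6 is therefore uncertain, whereas the counts of Sult2a7, Sult2a8, Sult1a1 and Sult1e1 show no sign of divided reads.

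**Figure D1:**
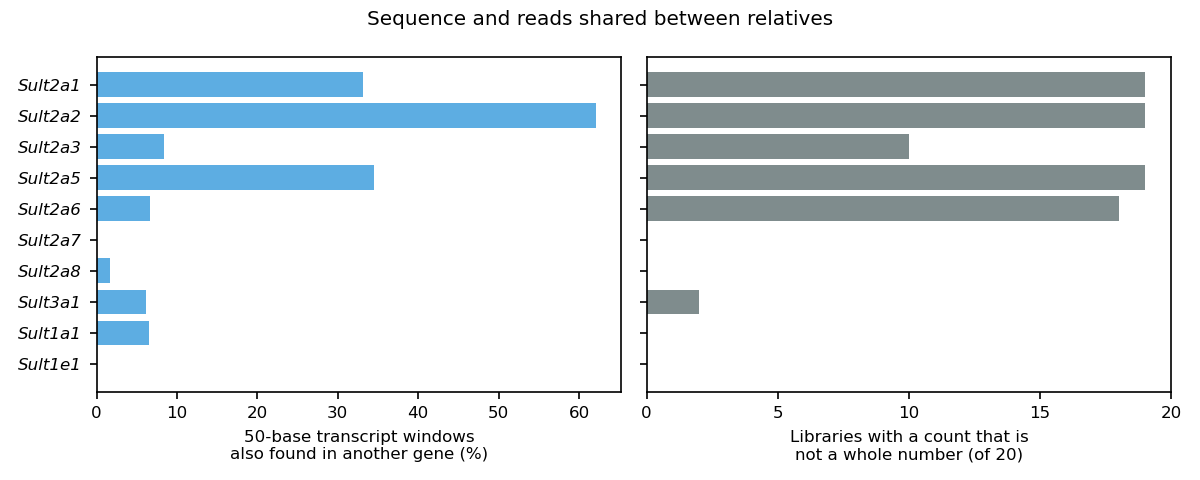
Horizontal bars give, for each of the 10 genes, the percentage of 50-base transcript windows also found in another gene (left) and the number of the 20 libraries with a count that was not a whole number (right). Sult2a1, Sult2a2 and Sult2a5 have the longest bars in both panels, at 33.2%, 62.1% and 34.5% and 19 libraries each, while Sult2a7 and Sult1e1 have 0 in both.

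RefSeq promoter entries on GRCm38.p6 were found for 7 of the 10 genes, with 8 start sites in all, and Sult2a1, Sult2a2 and Sult2a7 had none. The 250 bases before the start are printed for Sult2a3, Sult2a5 and Sult2a6, with the longest run found in all 3 in capitals (16 bases). They lie at chr7:14123049-14123298 (minus strand), chr7:13623717-13623966 (plus strand) and chr7:14254871-14255120 (minus strand) and are given in the direction of transcription.
Sult2a3: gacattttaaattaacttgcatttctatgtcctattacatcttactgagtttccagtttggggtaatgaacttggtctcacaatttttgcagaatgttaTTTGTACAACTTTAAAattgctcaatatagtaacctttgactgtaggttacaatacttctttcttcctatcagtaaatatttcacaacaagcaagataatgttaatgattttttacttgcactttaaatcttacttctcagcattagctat
Sult2a5: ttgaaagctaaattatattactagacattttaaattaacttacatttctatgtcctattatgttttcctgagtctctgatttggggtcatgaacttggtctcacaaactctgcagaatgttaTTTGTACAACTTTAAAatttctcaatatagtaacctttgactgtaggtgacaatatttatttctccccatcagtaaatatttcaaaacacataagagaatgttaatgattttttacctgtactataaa
Sult2a6: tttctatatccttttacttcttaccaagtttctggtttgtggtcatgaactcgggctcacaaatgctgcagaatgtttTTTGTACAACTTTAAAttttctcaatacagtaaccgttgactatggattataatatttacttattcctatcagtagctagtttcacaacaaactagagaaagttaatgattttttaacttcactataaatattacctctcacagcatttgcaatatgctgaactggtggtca
Aligned with each other, these upstream sequences were 88.1% identical between Sult2a3 and Sult2a5, 82.1% between Sult2a3 and Sult2a6 and 81.6% between Sult2a5 and Sult2a6. A STAT5-type motif, TTCNNNGAA, and a nuclear receptor half-site, AGGTCA, were searched on both strands. TTCNNNGAA was present in 7.02% and AGGTCA in 14.0% of the 32851 promoter entries of the same length. Neither was found upstream of Sult2a3, Sult2a5, Sult2a6 or Sult1a1. Sult3a1 held 1 TTCNNNGAA, Sult1e1 held 1 AGGTCA, and 1 of the 2 Sult2a8 start sites, with its upstream stretch at chr7:14438552-14438801 (minus strand), held 2 AGGTCA, shown in capitals.
Sult2a8: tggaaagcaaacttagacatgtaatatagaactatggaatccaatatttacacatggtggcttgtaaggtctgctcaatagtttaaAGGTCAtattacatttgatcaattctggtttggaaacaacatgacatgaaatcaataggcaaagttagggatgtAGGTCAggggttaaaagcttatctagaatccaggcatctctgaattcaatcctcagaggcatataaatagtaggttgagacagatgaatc
A match of these letters is a description of the sequence and no evidence of a bound factor.

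Sult2a7 is described first, since its counts show no sign of divided reads. In Vec livers it had 146, 149, 17.9, 119 and 64.8 CPM, and in Vec+BBR livers 3.98, 1.79, 2.24, 1.47 and 1.32 CPM. In shRNA livers it had 42.0, 49.0, 101, 92.6 and 66.2 CPM, and in shRNA+BBR livers 15.4, 10.1, 2.56, 2.65 and 17.2 CPM. All Vec+BBR livers lay below all Vec livers, and all shRNA+BBR livers lay below all shRNA livers, with the third Vec liver (17.9 CPM) standing just above the highest shRNA+BBR liver. The log2 fold change with BBR was −5.51 (SE 0.62) in Vec livers. In shRNA livers, which share the fit but no libraries with that contrast, Sult2a7 fell by 2.88 on the log2 scale (SE 0.53), or 7.36-fold (edgeR adjusted p = 0.00398). This call was kept in all 17 alternative fits, with adjusted p values from 5.63e-05 to 0.0145 (edgeR, DESeq2 or limma-voom).

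**Figure D2:**
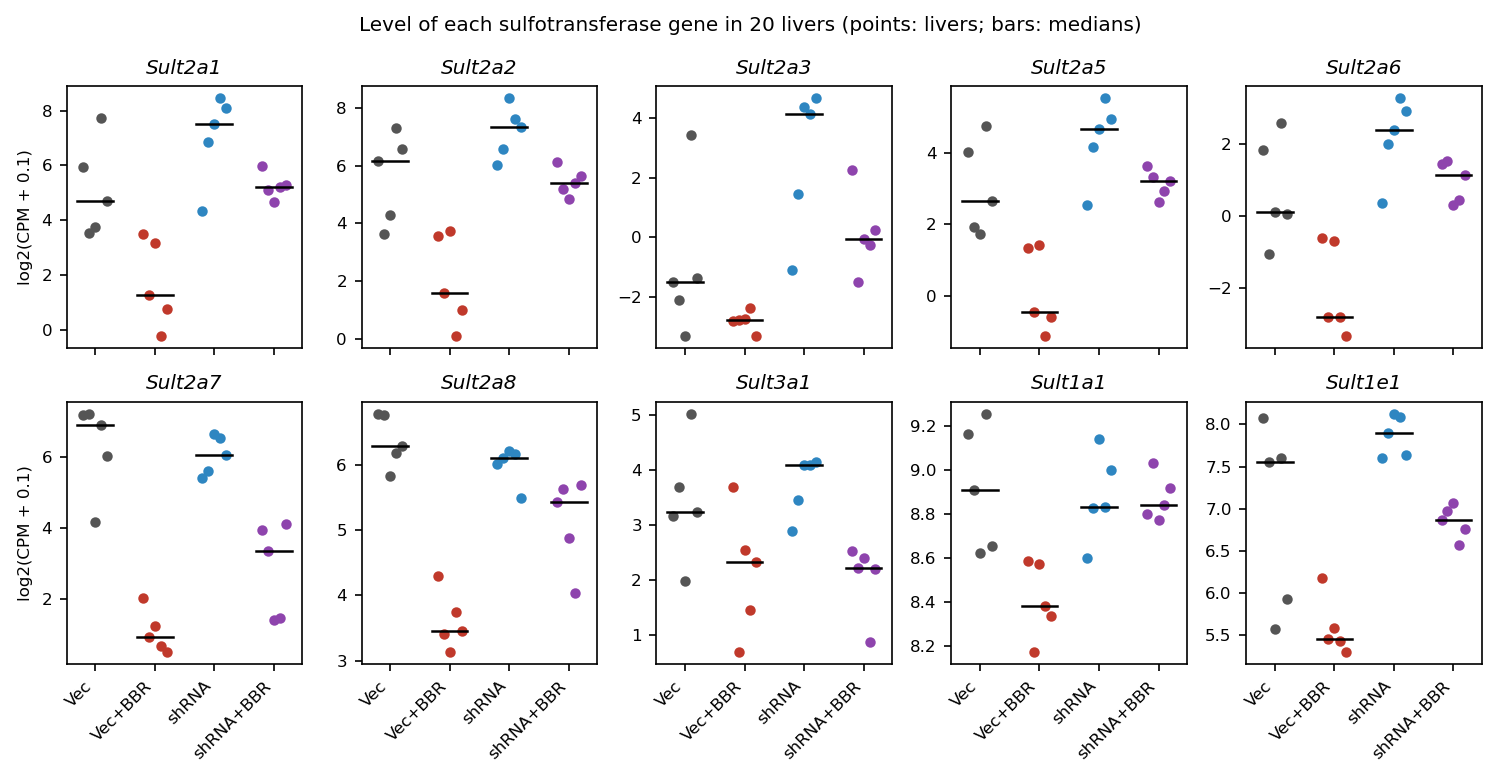
Each panel shows 1 gene, each point 1 liver and each bar the median of 5 livers, on a log2(CPM + 0.1) axis whose range differs between panels. Vec+BBR livers have the lowest median for all genes but Sult3a1, where shRNA+BBR livers are lower, and for Sult2a7 they lie between 1.32 and 3.98 CPM against 17.9 to 149 CPM in Vec.

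Sult2a8, a bile acid sulfotransferase of mouse liver, was steadier between livers of a group. Its levels were 109.9, 108, 57.1, 72.5 and 78.2 CPM in Vec and 19.6, 10.5, 8.70, 13.3 and 10.9 CPM in Vec+BBR livers. In shRNA livers they were 64.3, 68.8, 74.3, 72.1 and 44.96 CPM, and in shRNA+BBR livers 42.8, 49.6, 29.3, 16.2 and 51.3 CPM. The Vec and Vec+BBR ranges were far apart, while shRNA and shRNA+BBR overlapped at 44.96 to 51.3 CPM. BBR was associated with log2 fold changes of −2.75 (SE 0.28) in Vec livers and −0.78 (SE 0.26, edgeR adjusted p = 0.0475) in shRNA livers.

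Sult2a1, the hydroxysteroid sulfotransferase after which the group is named, had 61.2, 11.4, 13.4, 210.3 and 25.8 CPM in Vec livers and 11.1, 2.33, 8.99, 0.759 and 1.60 CPM in Vec+BBR livers. It had 20.01, 117, 182, 353 and 276 CPM in shRNA livers and 63.2, 34.2, 24.96, 37.3 and 39.3 CPM in shRNA+BBR livers. The fourth Vec liver stood far above the other 4, the first shRNA liver lay below the whole shRNA+BBR group, and the lowest Vec liver was just above the highest Vec+BBR liver. Sult2a2, the gene with the most shared sequence, had 71.2, 12.4, 19.3, 156 and 96.1 CPM in Vec, 11.8, 2.91, 13.1, 0.982 and 1.93 CPM in Vec+BBR, 65.2, 96.4, 326, 198 and 162 CPM in shRNA and 70.1, 36.9, 28.6, 42.1 and 49.3 CPM in shRNA+BBR livers. The fourth Vec liver was again the highest of its group, Vec and Vec+BBR livers overlapped at 12.4 to 13.1 CPM, and the lowest shRNA liver lay inside the shRNA+BBR range.

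Sult2a3 was at or under the floor of 3 counts in all 5 Vec+BBR livers (at most 0.0893 CPM) and in 2 Vec livers, so no fold change is given for contrasts with the Vec+BBR group. It had 0.251, 0.129, 0, 10.7 and 0.283 CPM in Vec livers, 0.366, 2.62, 20.9, 17.8 and 25.7 CPM in shRNA livers and 4.70, 0.249, 0.852, 0.730 and 1.08 CPM in shRNA+BBR livers. The Vec mean thus rests on the fourth liver. Sult2a5 ranged from 3.19 to 26.7 CPM (median 6.22) in Vec, 0.357 to 2.57 CPM (median 0.627) in Vec+BBR, 5.71 to 46.7 CPM (median 25.6) in shRNA and 6.11 to 12.3 CPM (median 9.10) in shRNA+BBR livers. Sult2a6 ranged from 0.386 to 5.88 CPM (median 0.981), 0 to 0.556 CPM (median 0.0448), 1.19 to 9.68 CPM (median 5.15) and 1.14 to 2.82 CPM (median 2.10) in the same order of groups, and 3 Vec+BBR livers were at or under the floor.

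Because reads are divided within the group, the 6 genes Sult2a1, Sult2a2, Sult2a3, Sult2a5, Sult2a6 and Sult2a7 were also summed, which does not depend on how reads were split among them. Sult2a4, which shares reads with them, was not in the sum and had at most 14.3 counts in any library. The sum was 299, 177, 54.9, 529 and 194 CPM in Vec livers and 29.9, 7.75, 27.5, 3.70 and 5.41 CPM in Vec+BBR livers. It was 134, 286, 660.2, 717 and 569 CPM in shRNA livers and 168, 94.2, 64.2, 91.6 and 118 CPM in shRNA+BBR livers. Group means were 251 ± 178, 14.9 ± 12.8, 473 ± 252 and 107 ± 39.1 CPM (SD, n = 5 each), so that the mean of the sum was 16.9 times lower with BBR in Vec livers and 4.41 times lower in shRNA livers. Vec and Vec+BBR livers did not overlap in the sum, nor did Vec+BBR and shRNA+BBR livers, whose means differed 7.22-fold. The shRNA and shRNA+BBR ranges overlapped through the first shRNA liver (134 CPM) and the first shRNA+BBR liver (168 CPM). Sult2a7 made up 44.3% ± 24.2 of the sum in Vec, 21.7% ± 12.1 in Vec+BBR, 17.7% ± 7.88 in shRNA and 8.26% ± 4.83 in shRNA+BBR livers (SD, n = 5 each), and Sult2a1 made up 20.9% ± 12.6, 30.0% ± 6.11, 36.2% ± 14.8 and 37.3% ± 2.80. Sult2a7 had no divided reads and its fall chose the family, so a sum without it is also given. That sum of 5 genes was 11.9 times lower with BBR in Vec livers and 4.13 times lower in shRNA livers. Its mean in shRNA+BBR livers was 7.69 times that in Vec+BBR livers.

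**Figure D3:**
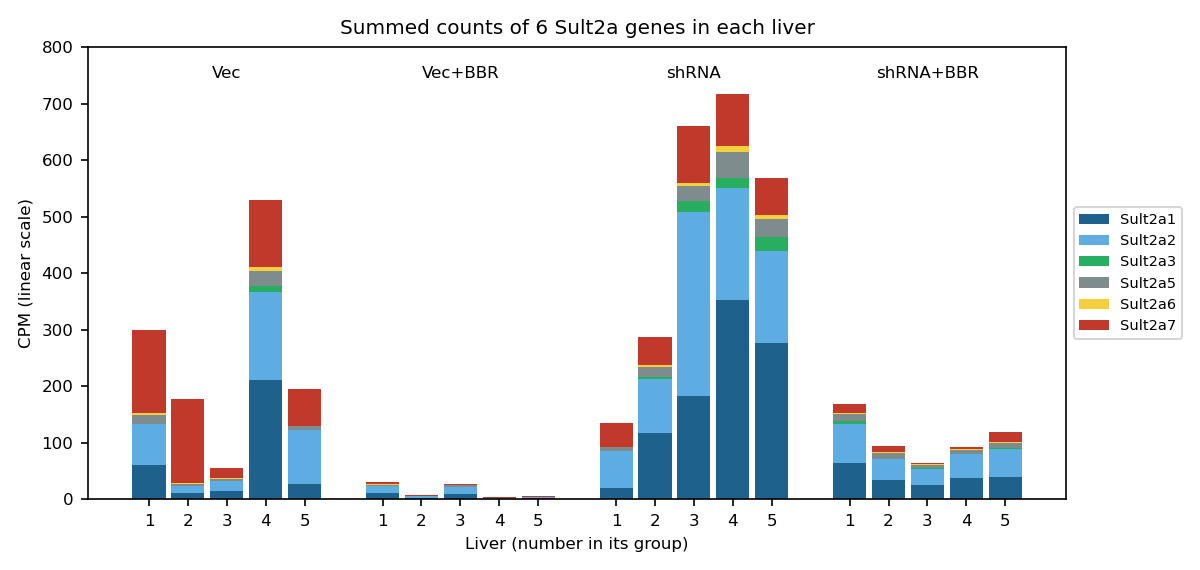
Stacked bars give the CPM of 6 Sult2a genes in each of the 20 livers on a linear axis from 0, with livers numbered within their group. The sums lie between 3.70 and 29.9 CPM in Vec+BBR and between 134 and 717 CPM in shRNA livers. Sult2a7 forms a larger part of the Vec than of the shRNA bars on average, but single bars overlap. Its share is 22.5% in the fourth Vec liver and 31.2% in the first shRNA liver.

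Sult3a1, an amine sulfotransferase, had 8.87, 12.8, 3.87, 32.3 and 9.37 CPM in Vec, 12.8, 1.52, 5.76, 2.63 and 4.94 CPM in Vec+BBR, 7.36, 10.8, 16.9, 17.04 and 17.6 CPM in shRNA and 5.67, 4.56, 5.21, 1.73 and 4.50 CPM in shRNA+BBR livers. Vec and Vec+BBR overlapped widely, whereas every shRNA+BBR liver lay below every shRNA liver. The log2 fold change with BBR was −1.27 (SE 0.50) in Vec livers. In shRNA livers Sult3a1 fell by 1.69 on the log2 scale (SE 0.50), or 3.22-fold (edgeR adjusted p = 0.0305). Its near relative Sult3a2, which shares 90.9% of aligned coding bases with it, was at 1.68 ± 0.787 CPM in shRNA and 0.714 ± 0.473 CPM with BBR added (SD, n = 5) with a log2 fold change of −1.25 (SE 0.59, edgeR adjusted p = 0.143).

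Sult1a1, the main phenol sulfotransferase, varied least. It had 574, 481, 394, 612 and 403 CPM in Vec, 384, 288, 380.4, 333 and 323 CPM in Vec+BBR, 388, 454, 565, 455 and 513 CPM in shRNA and 445, 523, 438, 459 and 484 CPM in shRNA+BBR livers. Vec+BBR livers lay below all other livers of the study, and the remaining 3 groups overlapped. The log2 fold changes with BBR were −0.53 (SE 0.13) in Vec livers and −0.02 (SE 0.12, edgeR adjusted p = 0.944) in shRNA livers.

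Sult1e1, the estrogen sulfotransferase, had 270.1, 188, 47.6, 194 and 60.6 CPM in Vec, 72.5, 43.5, 47.7, 42.9 and 39.4 CPM in Vec+BBR, 194, 238, 279, 273 and 199 CPM in shRNA and 116, 125, 134, 94.6 and 108 CPM in shRNA+BBR livers. The third and the fifth Vec livers lay within the Vec+BBR range, while shRNA and shRNA+BBR livers were fully apart, as were Vec+BBR and shRNA+BBR livers. The log2 fold change with BBR was −1.63 (SE 0.33) in Vec livers. In shRNA livers Sult1e1 fell by 1.03 on the log2 scale (SE 0.32), or 2.05-fold (edgeR adjusted p = 0.0368).

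Levels of different genes can be compared only per length, and for this the deposited FPKM values were used. In Vec livers Sult1a1 was the most abundant member with 367 ± 81.9 FPKM, followed by Sult2a7 with 118 ± 65.1, Sult1e1 with 115 ± 71.7, Sult2a2 with 93.4 ± 80.4, Sult2a1 with 61.8 ± 82.6 and Sult2a8 with 42.3 ± 9.35 FPKM (SD, n = 5). Sult3a1, Sult2a5, Sult2a6 and Sult2a3 had 11.95 ± 10.3, 10.4 ± 9.70, 2.36 ± 2.41 and 2.22 ± 4.62 FPKM. Only 2 of the 9 steps between neighbours in this order exceeded the larger SD of the pair, from Sult1a1 to Sult2a7 and from Sult2a8 to Sult3a1. Sult1a1 remained first in all 4 groups, with 278 ± 19.7 FPKM in Vec+BBR, 380.0 ± 53.0 in shRNA and 372 ± 25.4 in shRNA+BBR livers (SD, n = 5). Sult2a7 was second in Vec, at rank 7 in Vec+BBR (2.78 ± 1.22 FPKM), rank 5 in shRNA (90.0 ± 33.4 FPKM) and rank 6 in shRNA+BBR livers (12.3 ± 9.05 FPKM). The rank of Sult2a2 also depends on its short annotated transcript.

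The first comparison asked how BBR changed these genes in control-vector livers, and it is the contrast that chose them. The fitted values of the 9 members other than Sult2a3 were all negative, with a median of −3.09 on the log2 scale against −0.01 over all tested genes. Sult2a1, Sult2a2, Sult2a5 and Sult2a6 had log2 fold changes of −3.70 (SE 0.84), −3.53 (SE 0.69), −3.09 (SE 0.65) and −3.30 (SE 0.80). Groups that did not overlap, lower with BBR, were found in 5 of 10 members (Sult2a1, Sult2a5, Sult2a7, Sult2a8 and Sult1a1), beside 4.24% of all tested genes, and nothing is read from this count, since the contrast was used for the choice. Without the fourth Vec liver the log2 values were −2.49 for Sult2a1, −2.49 for Sult2a5, −2.62 for Sult2a6 and −0.64 for Sult3a1. Without the first Vec+BBR liver they were −3.93 for Sult2a6 and −1.87 for Sult3a1.

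The second comparison asked whether BBR changed the same genes in livers with Pparg knockdown, with no library shared with the first. Its fit still estimated the spread over all 4 groups, and the genes were chosen with earlier results of these data known. Its p-values are therefore not fully independent of the choice. Of the 10 members, 7 were lower and none was higher at an edgeR adjusted p under 0.05, where 7.28% of all tested genes were lower. The median over members was −1.59 on the log2 scale against 0.01 over all tested genes. Beside Sult2a7, Sult2a8, Sult3a1 and Sult1e1, the calls were Sult2a1 (log2 −2.25, SE 0.76, edgeR adjusted p = 0.0482), Sult2a2 (log2 −1.90, SE 0.62, edgeR adjusted p = 0.0437) and Sult2a3 (log2 −3.17, SE 1.02, edgeR adjusted p = 0.0404). Sult2a5 had −1.50 (SE 0.54, edgeR adjusted p = 0.0612) and Sult2a6 −1.46 (SE 0.58, edgeR adjusted p = 0.0866), and Sult1a1 did not pass. Groups without overlap, lower with BBR, were found in 3 of 10 members (Sult2a7, Sult3a1 and Sult1e1) and in 5.58% of all tested genes. Most of these calls lay close to the threshold. Leaving out shRNA livers 1 to 5 in turn gave 7, 3, 1, 1 and 2 called members. Over all tested genes the same fits called 1178, 1281, 1593, 1159 and 1175 in either direction, against 1932 in the full fit. Leaving out shRNA+BBR livers 1 to 5 gave 5, 2, 1, 1 and 4 members, beside 2166, 1140, 661, 1195 and 2527 of all tested genes. Without the first shRNA+BBR liver the log2 fold change of Sult2a3 was −4.23.

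**Figure D4:**
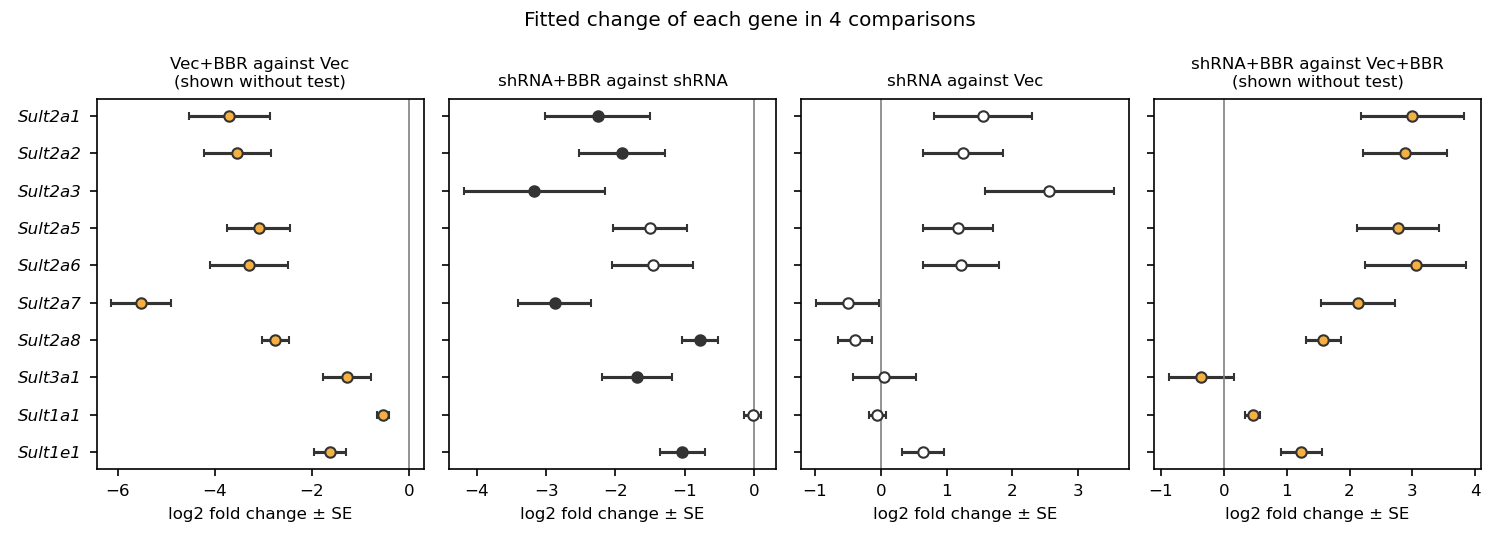
Points give the fitted log2 fold change and bars the standard error for each gene in 4 comparisons, with 5 livers a group, where filled dark points passed an edgeR adjusted p of 0.05, open points did not, orange points are shown without a test, and Sult2a3 is left out where the Vec+BBR group was at the floor. In shRNA livers 7 genes lie left of 0 and pass, and in shRNA against Vec none passes.

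The third comparison asked whether knockdown changed the genes in livers of vehicle mice, and it shares the Vec livers with the first. High values in those livers helped to choose the genes, so its p-values are not independent of the choice. None of the 10 members passed at an edgeR adjusted p of 0.05, where 5.28% of all tested genes were higher. DESeq2 and limma-voom also called 0 of 10. At an unadjusted edgeR p under 0.05, 4 of 10 were higher (Sult2a1, Sult2a3, Sult2a5 and Sult2a6), beside 12.7% of all tested genes. Log2 fold changes were 1.56 for Sult2a1 (SE 0.74, edgeR adjusted p = 0.171), 1.25 for Sult2a2 (SE 0.61, edgeR adjusted p = 0.182) and 2.56 for Sult2a3 (SE 0.98, edgeR adjusted p = 0.0878). Sult2a5 and Sult2a6 had 1.17 (SE 0.53) and 1.22 (SE 0.58). Sult2a7 and Sult2a8, the members of the cluster with no divided reads, had values of the other sign, −0.50 (SE 0.48) and −0.39 (SE 0.26). Sult1e1 had 0.64 (SE 0.32), Sult3a1 0.06 (SE 0.48) and Sult1a1 −0.05 (SE 0.12). For some genes of the cluster the call depended on 1 liver, the highest Vec liver for Sult2a1, Sult2a2, Sult2a3, Sult2a5 and Sult2a6. Leaving it out raises their fold changes by construction, so nothing is read from the calls made without it. Sult2a2, Sult2a7 and Sult2a8 gained no call. Without the fourth Vec liver, 4 of 10 members were called higher, while calls in either direction over all tested genes rose from 1628 to 2284. They were Sult2a1 (log2 2.76, edgeR adjusted p = 0.0109), Sult2a3 (log2 6.28, edgeR adjusted p = 0.000741), Sult2a5 (log2 1.78, edgeR adjusted p = 0.0240) and Sult2a6 (log2 1.89, edgeR adjusted p = 0.0309). For Sult2a3, 2 of the Vec livers that remained were at or under the floor of 3 counts, so its fold and p rest on a baseline near the floor. Sult3a1 had 0.69.

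The fourth comparison set the groups given BBR against each other. It shares the Vec+BBR livers with the first, and low values in that group helped to choose the genes, so it is described without a test. Over the 9 members other than Sult2a3 the median was 2.13 on the log2 scale against −0.004 over all tested genes. Values with the knockdown were 7.99-fold higher for Sult2a1 (log2 2.999, SE 0.82), 7.37-fold for Sult2a2 (log2 2.88, SE 0.67), 6.83-fold for Sult2a5 (log2 2.77, SE 0.65) and 8.30-fold for Sult2a6 (log2 3.05, SE 0.80). The same ratio was 4.39-fold for Sult2a7 (log2 2.13, SE 0.59), 3.002-fold for Sult2a8 (log2 1.59, SE 0.27), 2.35-fold for Sult1e1 (log2 1.23, SE 0.33) and 1.37-fold for Sult1a1 (log2 0.46, SE 0.13). Sult3a1 had −0.36 (SE 0.51). Every shRNA+BBR liver lay above every Vec+BBR liver in 7 of 10 members (Sult2a1, Sult2a2, Sult2a3, Sult2a5, Sult2a6, Sult1a1 and Sult1e1), beside 3.28% of all tested genes, and nothing is read from this count. Without the first Vec+BBR liver the log2 value was 3.70 for Sult2a6 and 0.25 for Sult3a1.

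The difference between the BBR effects (in shRNA minus in Vec livers) is built on the contrast that chose the genes and is described without a test. It was 2.63 (SE 0.76) for Sult2a7, 1.98 (SE 0.37) for Sult2a8, 1.44 (SE 1.07) for Sult2a1, 1.63 (SE 0.89) for Sult2a2, 1.60 (SE 0.83) for Sult2a5 and 1.83 (SE 1.01) for Sult2a6 on the log2 scale. Sult1a1, Sult1e1 and Sult3a1 had 0.51 (SE 0.18), 0.59 (SE 0.46) and −0.41 (SE 0.70). Without the fourth Vec liver the value of Sult2a1 was 0.24, that of Sult2a5 0.99, that of Sult2a6 1.16 and that of Sult3a1 −1.04. Without the first Vec+BBR liver Sult2a6 had 2.48 and Sult3a1 0.19.

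Across the 20 livers the levels fell into differing patterns, given here as a description over points that share groups and, within the cluster, divided reads. Spearman's rho was 0.991 between Sult2a1 and Sult2a5, 0.971 between Sult2a1 and Sult2a6 and 0.943 between Sult2a1 and Sult2a2. It was 0.931 between Sult2a7 and Sult2a8 but 0.564 between Sult2a1 and Sult2a8. After the group means were removed from the log2 levels, Pearson's r was 0.982 for Sult2a1 and Sult2a5, 0.740 for Sult2a7 and Sult2a8 and 0.0531 for Sult2a1 and Sult2a8. Livers high in Sult2a1 within a group were thus high in Sult2a5 too, while their Sult2a8 level bore little relation to it. The patterns were not fully apart, since the same r was 0.497 for Sult2a7 and Sult2a1 and 0.572 for Sult2a7 and Sult2a5. Genes outside the cluster also followed Sult2a5, with 0.757 for Sult1a1 and 0.701 for Sult3a1.

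**Figure D5:**
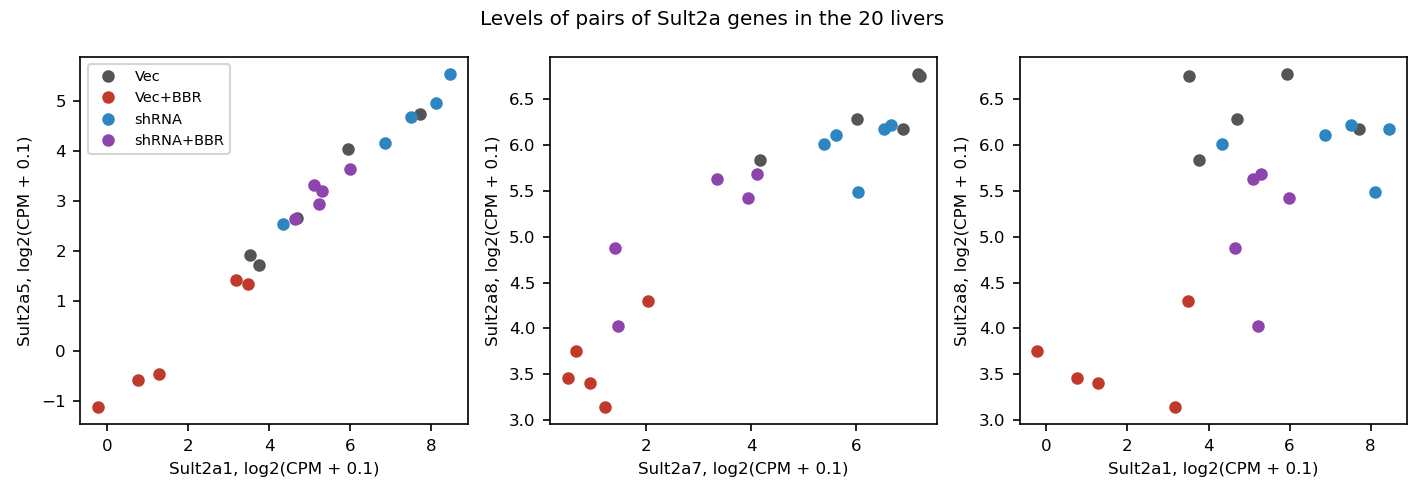
Each point is 1 of the 20 livers, coloured by group, on log2(CPM + 0.1) axes. Sult2a1 and Sult2a5 (left, rho 0.991) and Sult2a7 and Sult2a8 (middle, rho 0.931) rise together, whereas Sult2a1 and Sult2a8 (right, rho 0.564) scatter.

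Outside the sulfotransferases, the tested genes most like Sult2a7 over the 20 livers were Cyp2c54 (Spearman's rho 0.979), Rdh16f2 (0.962), Cyp2c37 (0.961) and Mthfd1 (0.956). For Sult2a8 they were Cyp2c54 (0.953), Cyp7b1 (0.943), Serpina3k (0.938) and Cyp2c50 (0.934), and Cyp2c54 thus led both lists. Sult3a1 was most like Fcna (0.902), Sqor (0.896), Cyp2c69 (0.836) and Ugt1a1 (0.829). Sult1e1 was most like Cyp3a44 (0.943), Nup88 (0.925), Car14 (0.922) and Fgg (0.905), and Sult1a1 most like Pnp (0.919), Gpank1 (0.886) and Mt1 (0.872). These genes were ranked over all tested genes and share the same groups, so the values describe likeness only.

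The genes that supply sulfate and its donor were examined as a list. Of 10 tested genes for PAPS supply and sulfate transport, 3 were lower and none was higher with BBR in shRNA livers, with a list median of 0.01 on the log2 scale. Papss2, which makes PAPS, fell from 231 ± 40.1 to 136 ± 29.1 CPM (log2 −0.77, SE 0.17, edgeR adjusted p = 0.00777). Slc26a1, a sulfate transporter, fell from 194 ± 22.1 to 133 ± 18.0 CPM (log2 −0.55, SE 0.11, edgeR adjusted p = 0.00593), and Suox, which oxidises sulfite to sulfate, fell from 258 ± 17.8 to 176 ± 46.2 CPM (log2 −0.55, SE 0.14, edgeR adjusted p = 0.0170; SD, n = 5 for all). With knockdown, 1 gene of this list was lower in vehicle and 1 in BBR livers, beside 7.91% and 4.82% of all tested genes. Of 11 tested other sulfotransferases, 2 were lower and 1 was higher with BBR in shRNA livers (list median −0.04), where 8.37% of all tested genes were higher. Sult1b1, which acts on thyroid hormones, fell from 69.8 ± 11.4 to 42.2 ± 4.42 CPM (log2 −0.73, SE 0.14, edgeR adjusted p = 0.00463). Ndst1, an enzyme of heparan sulfate, fell by 0.55 (SE 0.18, edgeR adjusted p = 0.0437), and Gal3st1, which makes sulfatide, rose by 1.43 (SE 0.29, edgeR adjusted p = 0.00533) on the log2 scale. Of 11 tested sulfatase genes, 2 were lower, among them Sulf2, and 1 was higher (Arsa), with a list median of −0.01.

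Because several members are known for higher expression in females, lists of sex-biased liver genes were set beside them. Of 19 tested female-biased genes, 6 were lower and none was higher with BBR in shRNA livers, with a list median of −0.94. Cyp3a44, Cyp2c69 and Cyp3a41a, P450 genes with close copies in the genome, had −1.67 (SE 0.36), −2.22 (SE 0.52) and −2.54 (SE 0.69), with edgeR adjusted p values of 0.00748, 0.0112 and 0.0208. With knockdown, 5 of the 19 were higher in vehicle livers, and 3 were higher and 2 lower in BBR livers, where 3.31% of all tested genes were higher. Of 18 tested male-biased genes, 4 were higher (Gstp1, Cyp4a12a, Elovl3 and Cyp4a12b) and 4 were lower with BBR in shRNA livers, with a list median of −0.12. With BBR in Vec livers both lists fell: 5 female-biased genes were lower and 1 was higher (list median −0.83), and 6 male-biased genes were lower and none was higher (list median −0.74). In that comparison 1908 of all tested genes were called in either direction. With knockdown, 6 of the 18 were lower and none was higher in vehicle livers, and none was called in BBR livers.

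Nuclear receptors known to act on sulfotransferase genes were a further list, which also held Foxa1 and Foxa2, transcription factors of another family. Of 17 tested, 1 was higher (Pparg, the target of the knockdown) and 2 were lower with BBR in shRNA livers, with a list median of −0.15. Nr1h2 (LXRβ) had −0.25 (SE 0.08, edgeR adjusted p = 0.0371) and Rxra, the common partner receptor, −0.43 (SE 0.14, edgeR adjusted p = 0.0441). Of 20 target genes of the xenobiotic receptors CAR and PXR, 4 were higher and 8 were lower (list median −0.27). Ugt1a9 rose by 1.22 (SE 0.22, edgeR adjusted p = 0.00366) and Aldh1a7 by 0.47 (SE 0.12, edgeR adjusted p = 0.0171), whereas Ces2a fell by 0.80 (SE 0.15, edgeR adjusted p = 0.00447) and Ugt1a1 by 0.59 (SE 0.13, edgeR adjusted p = 0.00852) on the log2 scale. Ugt1a transcripts share exons, so their counts are uncertain.

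In bulk liver, fewer cells of a type and less RNA per cell cannot be told apart. With BBR in shRNA livers, 2 of 6 hepatocyte markers were lower (Serpina1c, log2 −0.71, and Cps1, log2 −0.87) and none was higher, and the summed hepatocyte markers lay between 101181 and 117843 CPM against 109374 to 126258 CPM. Stellate markers summed to 229 to 305 CPM against 190 to 245 CPM (2 of 6 higher), cholangiocyte markers to 31.3 to 88.0 CPM against 26.3 to 34.9 CPM (1 of 5 higher), and Kupffer and macrophage markers to 117 to 174 CPM against 107 to 147 CPM (1 of 6 higher). Endothelial markers summed to 94.5 to 132 CPM against 110 to 138 CPM (1 of 6 higher, 2 lower) and lymphocyte markers to 3.28 to 9.42 CPM against 1.54 to 4.15 CPM (2 of 4 higher). Adipocyte markers summed to 0.867 to 5.45 CPM against 0 to 0.274 CPM, and 1 of 1 tested (Cfd) was higher. With BBR in Vec livers, 3 of 6 hepatocyte markers were lower and none was higher, and their sum lay between 84502 and 119406 CPM against 115584 to 145539 CPM. Of the other lists there, 2 of 6 stellate, 3 of 6 endothelial, 1 of 5 cholangiocyte and 1 of 1 adipocyte markers were higher. Kupffer and macrophage markers had 1 higher and 1 lower, and 2 of 4 lymphocyte markers were lower. No marker of any list was at 0 in all 20 libraries. The part of these shifts in the sulfotransferase results was not tested.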

How the data were processed

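Poly(A)-selected RNA of 20 livers was sequenced by the authors, and values were taken from 1 deposited file per library. Per the file headers, each file holds expected counts and FPKM values made by the authors, which split reads that match several genes, and FPKM adds scaling for length and depth. The submitters' processing notes name mm10. The aligner, the counting program and whether strand was used are not given in the sources used here. Groups and replicate numbers came from the sample labels.

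Expected counts were rounded to whole numbers, filtered with filterByExpr (minimum count 10, minimum total 15), scaled by TMM (factors 0.873 to 1.14) and fitted with 1 mean per group over all 4 groups by the quasi-likelihood test of edgeR 4.0.16 (R 4.3.3). P-values were adjusted over 12342 genes by Benjamini-Hochberg, with 0.05 as the threshold. The fit was tested on simulated data first. FPKM served only to order genes. Alternatives were DESeq2 1.42.0 (test or size factors), limma-voom 3.58.1, other filters, 2-group fits, a replicate block and leaving out each library. Within groups, 40 pairs of libraries were compared, and none was a duplicate (chi-square per gene at least 14.8). No P-value is given for members in comparisons with the Vec+BBR livers, whose low values helped to choose them. For shRNA+BBR against Vec+BBR a test had been planned and was left out for this reason.

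Members and gene lists were chosen with earlier results of these data known. The text names all members, the knockdown target, up to 4 called genes of each list with the smallest adjusted p under BBR in shRNA livers, and the 4 genes most like 5 of the members. A few genes that this rule picks are not reported here. Coding sequences and windows came from GENCODE M21 on GRCm38 and upstream sequences from RefSeq on GRCm38.p6, aligned with MAFFT 7.526 or Biopython 1.88.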

Additional observations from a re-analysis of the deposited data

Results flagged for a closer look

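Among 40 combinations of gene and group, 4 had a liver far from the other 4 by Dixon's criterion, where chance alone marks about 1 in 20. The fourth Vec liver stood out with 210.3 CPM of Sult2a1 (next liver 61.2 CPM) and 10.7 CPM of Sult2a3 (next liver 0.283 CPM). The first shRNA+BBR liver had 4.70 CPM of Sult2a3 (next liver 1.08 CPM), and the first Vec+BBR liver had 72.5 CPM of Sult1e1 (next liver 47.7 CPM).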

How the results depend on the processing

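Of 816 refits of single genes, 739 kept direction and, where tested, side of the threshold, 53 lost a call, 8 gained one and 16 changed sign. Sult1a1 with BBR in shRNA livers changed sign from −0.02 to 0.0040 with at least 10 counts in every library, and ran from −0.082 to 0.057 with single libraries left out. With single libraries left out, the knockdown values in vehicle livers ran from −0.18 to 0.69 for Sult3a1 and from −0.12 to 0.038 for Sult1a1, that of Sult3a1 in BBR livers from −0.58 to 0.25, and the difference of the BBR effects from −1.04 to 0.19 for Sult3a1. All genes called under BBR in Vec livers fell from 1908 to 1178 when only those 2 groups were fitted. Such 2-group fits gave 2061 against 1932 genes and 8 against 7 members under BBR in shRNA livers. For knockdown they gave 1149 against 1628 genes in vehicle livers and 1004 in both fits in BBR livers. With single libraries left out, genes called under BBR in Vec livers ran from 1237 to 2395. The same omissions gave 661 to 2527 genes and 1 to 7 members under BBR in shRNA livers, 1015 to 2284 genes and 0 to 4 members for knockdown in vehicle livers, and 538 to 1129 genes for knockdown in BBR livers. With a replicate block, 4 members were called under BBR in shRNA livers and 1 for knockdown in vehicle livers, beside 1819 and 1495 of all tested genes. The samples were not treated as paired by number. After group means were removed, 6 of 30 pairs of libraries with the same number correlated over 0.1, and no pair of groups did so for all 5 numbers. Pairs with different numbers were not compared, so these values cannot decide whether the numbers pair the samples. Counts near the floor limit Sult2a3 and Sult2a6, and shared sequence limits Sult2a1 to Sult2a6. The cause of the changes was not tested.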
